A study of Mus musculus with 12 samples.

Results

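The genes described here are Ifitm1, Ifitm2 and Ifitm3, which encode interferon-induced transmembrane proteins, and Bst2, which encodes tetherin. Members were the rows of both tables of the series, 1 for tumors and 1 for cell lines, that carry a listed gene symbol. Of the 4 listed genes, 3 were found in both tables, among 17285 genes in each. Ifitm2 was not analysed here. The 12 samples were 6 tumors, 3 of them NRF2 knockout and 3 control, and 6 cell line samples with the same split. The cells are the mouse melanoma line #781 on a C57BL/6 background, which was isolated from tumors of mice with a Cre recombinase driven by the tyrosinase promoter and mutant BRAF, which all groups share. In the knockout the gene Nfe2l2, which encodes the stress-response factor NRF2, was cut with a pair of guide RNAs; control cells kept it, as the label Nfe2l2 wildtype states. Tumors arose after injection under the skin of C57BL/6 mice of both sexes aged 6–7 weeks, from 1 set of knockout and control cells. Cultured cells were grown in DMEM with serum, and the labels do not say whether their replicates came from separate cultures or from the injected set.

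Each table gave 1 mean log2 CPM per gene (log2 of a gene's reads after scaling each library to a common total) over both genotypes, and this is the only measure used below. No values of single samples were used, so there is no spread between replicates, no test and no depth per sample, and every difference below is a description. The knockout and control levels of these genes are not separated here, because the remaining columns hold the study's own comparison of the genotypes. Tumors were extracted whole, so host cells contribute to their values, and more cells of a type cannot be told apart from more RNA per cell.

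Ifitm proteins are small membrane proteins with a shared CD225 domain. They hinder the fusion of enveloped viruses with cell membranes: Ifitm3 acts mainly in endosomes, and Ifitm1 mainly at the cell surface. Tetherin spans the membrane at its start and carries a lipid anchor at its end, by which it holds newly budded virus particles on the cell that made them. Both kinds of protein are made by many cell types and are raised by interferons, through STAT and IRF transcription factors that bind near the start of their genes.

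Stretches of the promoters are shown for the 3 measured members, because interferon-responsive transcription is read from such sequences. They come from RefSeq on GRCm38.p6, and matches to the element bound by IRF factors (GAAA, any 2 bases, GAAA) are in capitals. For Ifitm3 the stretch runs from base −120 to base 30 relative to the RefSeq start of transcription (chr7:141010715-141010864, minus strand), for Ifitm1 over the same distance (chr7:140967956-140968105, plus strand), and for Bst2 from base −220 to base −71 (chr8:71537543-71537692, minus strand).
Ifitm3: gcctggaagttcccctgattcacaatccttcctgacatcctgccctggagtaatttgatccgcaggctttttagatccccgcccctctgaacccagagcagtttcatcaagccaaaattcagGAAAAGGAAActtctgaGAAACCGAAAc
Ifitm1: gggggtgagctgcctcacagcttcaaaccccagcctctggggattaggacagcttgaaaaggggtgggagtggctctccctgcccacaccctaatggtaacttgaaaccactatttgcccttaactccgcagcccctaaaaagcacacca
Bst2: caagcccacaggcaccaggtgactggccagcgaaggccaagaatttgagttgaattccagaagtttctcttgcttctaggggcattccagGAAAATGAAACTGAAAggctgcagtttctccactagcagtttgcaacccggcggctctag

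In the whole promoter windows, from 250 bases before to 50 after the start and on both strands, Ifitm3 had 2 matches, which begin at bases 3 and 20. Bst2 also had 2 matches, which overlap and begin at bases −130 and −124. The Ifitm1 window had 0 matches, and this says only that these letters are not in it. It was set on the RefSeq start at 140968076. In GENCODE M21 the gene begins farther upstream, at 140967221, and that start was not searched. Of 32851 RefSeq promoter windows, 1131 (3.44%) had at least 1 match and 74 (0.225%) had 2 or more. The palindrome TTCNNNGAA, which STAT dimers bind, was found once each in the windows of Ifitm3 (TTCTGAGAA, which begins at base 14 and overlaps the second IRF match) and Bst2 (TTCCAGGAA, which begins at base −136 and overlaps the first IRF match), and not in that of Ifitm1. It occurred in 8.30% of all windows. The letters TGANNNNGC are a loose form of the core of the element bound by NRF2. They were found once in each of these 3 windows and at least once in 41.3% of all windows, which says nothing particular to these genes. A match of letters does not show that a factor was bound.

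Ifitm3 had the highest mean of the members (Ensembl gene ENSMUSG00000025492, chromosome 7, 141009586 to 141010770 of GRCm38, minus strand). Its mean log2 CPM was 8.76 in tumors and 6.28 in cell lines, equal to 432 CPM in tumors and 77.7 CPM in cell lines. It stood above 98.3% of all genes in tumors and above 80.9% in cell lines on this scale, which takes no account of gene length. Because its exons cover only 678 bases, its place was higher per kilobase of exon, above 99.6% of genes in tumors and 96.5% in cell lines. Among genes above 5 log2 CPM, without regard to length, it stood above 49.8% in cell lines.

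Bst2 followed (ENSMUSG00000046718, chromosome 8, 71534255 to 71537456, minus strand), with a mean log2 CPM of 7.55 in tumors and 5.53 in cell lines. These values equal 188 CPM in tumors and 46.3 CPM in cell lines. Tetherin transcripts stood above 94.1% of genes in tumors and 70.0% in cell lines, or, per kilobase of exon, above 98.4% in tumors and 91.9% in cell lines. Among genes above 5 log2 CPM, without regard to length, the share was 84.9% in tumors and 21.0% in cell lines. Per kilobase, Ifitm3 exceeded Bst2 by 1.62 on the log2 scale in tumors and by 1.16 in cell lines.

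Ifitm1 was low in both tables (ENSMUSG00000025491, chromosome 7, 140967221 to 140969825, plus strand). Its mean log2 CPM was 1.99 in tumors, or 3.96 CPM, which exceeded that of 26.8% of genes (40.4% per kilobase of exon). In cell lines it was −0.93, a value held within 0.01 by 268 genes including Ifitm1, and the next value below it, −1.05, was the lowest of that table, held by 523 genes. Ifitm1 was therefore near the floor of the cell line table, and its distance from the other members there is not given as a measured one. In tumors Ifitm3 was 7.46 and Bst2 5.84 above Ifitm1 per kilobase on the log2 scale. The order was thus Ifitm3, Bst2 and Ifitm1 in both tables, and whether neighbours in it differ beyond the spread of samples cannot be said from means alone.

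**Figure D1:**
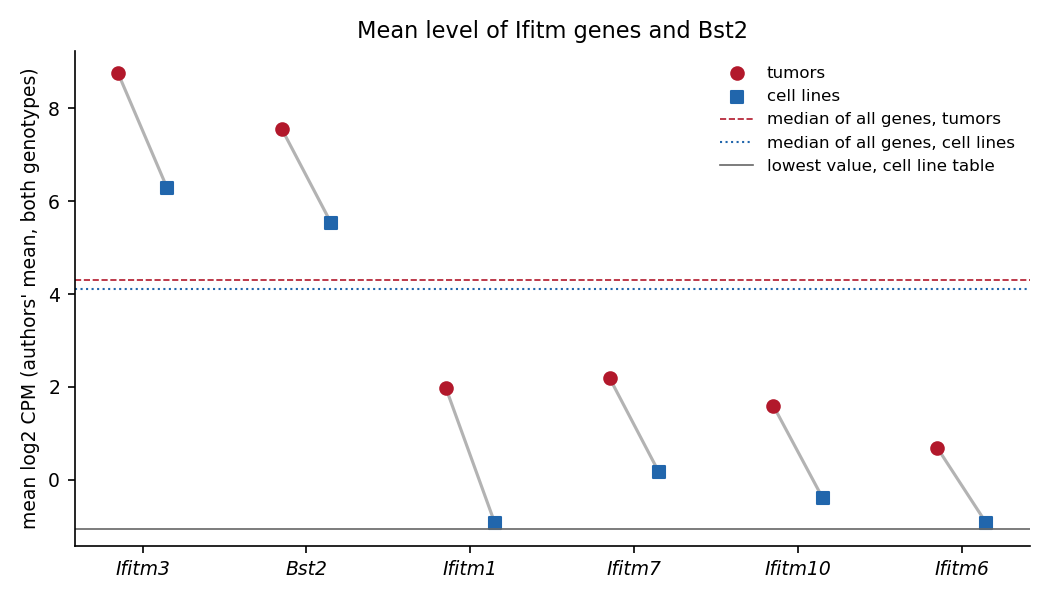
Mean log2 CPM of the measured members and of 3 further Ifitm genes in tumors (circles) and cell lines (squares), over both genotypes, with the median of all genes (dashed and dotted lines) and the lowest value of the cell line table (solid line). Ifitm3 and Bst2 lie above the medians of 4.30 in tumors and 4.11 in cell lines, while Ifitm1, Ifitm7, Ifitm10 and Ifitm6 lie below them.

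All 3 members had a higher mean in tumors than in cell lines. The difference, tumors minus cell lines, was 2.48 on the log2 scale for Ifitm3 (5.56-fold) and 2.02 for Bst2 (4.05-fold), against a median of 0.10 over all genes, of which 55.9% were higher in tumors. Larger differences than that of Ifitm3 were found for 953 genes, and larger ones than that of Bst2 for 1288 genes. How the tables were normalized is not given, and they were treated as normalized separately. The distance from the median difference of all genes was 2.37 for Ifitm3 and 1.92 for Bst2.

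The members were also set beside genes of like level. Of 2334 genes within 0.5 log2 CPM of Ifitm3 in the cell lines, the median difference was −0.13 and 3 had a larger one than Ifitm3. These were Tgfbi at 3.69, Pla2g7 at 3.34 and Ereg at 2.82, singled out after their values were seen. They encode a matrix protein induced by TGF-beta, a secreted phospholipase and an EGF family ligand. Around Bst2, the median over 2551 genes was −0.06 and 17 genes had a larger difference.

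For Ifitm1 the difference was 2.92, but it cannot be read as a fold change, since its value in culture rests on how counts near 0 were handled. The tables list the same genes, and the filter that chose them is not stated. Of the 268 genes at the cell line value of Ifitm1, 268 were higher in tumors, where their mean log2 CPM was −0.07 at the lowest and 0.93 at the median. In tumors 77 of these genes were above Ifitm1. The direction of the difference was therefore shared by every listed gene at this cell line value and says nothing particular to Ifitm1, and 419 of the 1761 genes within 0.5 log2 CPM of it in the cell lines had a larger difference.

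**Figure D2:**
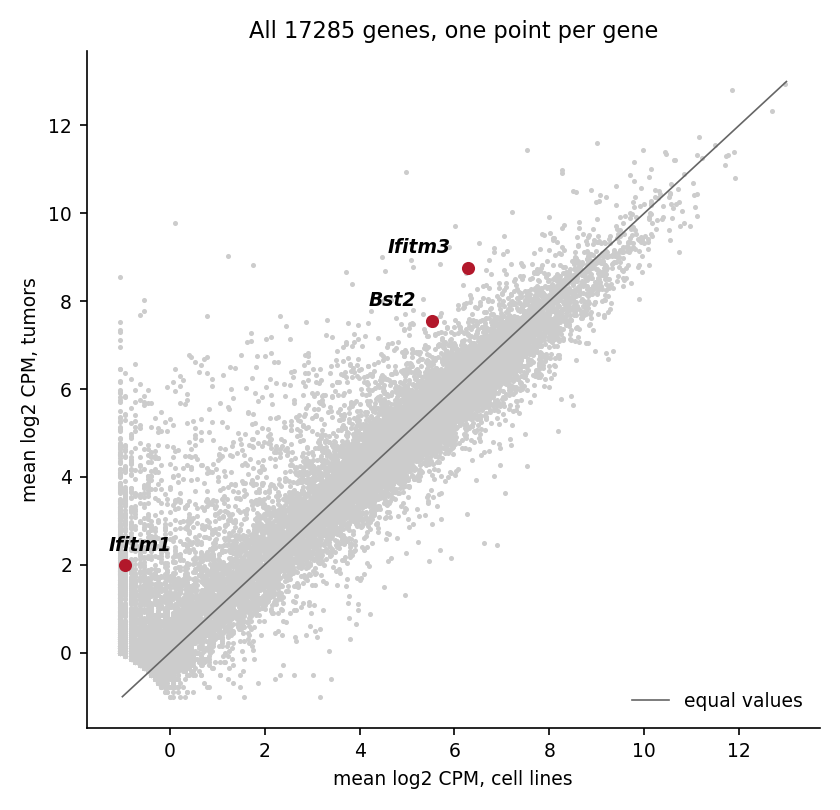
Mean log2 CPM in tumors (vertical axis) against mean log2 CPM in cell lines (horizontal axis) for all 17285 genes, 1 point per gene, with the line of equal values. Ifitm3 and Bst2 lie 2.48 and 2.02 above the line at the upper edge of genes of their level, and Ifitm1 lies among genes at the bottom of the cell line table.

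Leukocyte markers were higher in the same tumors, and the part of host cells in the difference of the members was not tested. Of 9 measured leukocyte markers 9 were higher in tumors, with a median difference of 5.63, and their summed level was 9.29 log2 CPM in tumors and 2.72 in cell lines. In the cell lines 8 of these 9 markers were below 0 log2 CPM. The sizes of their differences, and in part the summed level in cell lines, therefore rest on how counts near 0 were handled. Lyz2, Itgax and Cd8a were at the lowest value of the table and Adgre1 at −0.93, the values at which every listed gene was higher in tumors, so their direction carries nothing particular to them. The macrophage lysozyme Lyz2 was the highest of them in tumors, at 8.55, against −1.05 in cell lines, and the integrin Itgam the lowest, at −0.20 in tumors and −0.39 in cell lines. The pan-leukocyte marker Ptprc had 5.70 in tumors and −0.73 in cell lines.

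The lists of endothelial markers and of fibroblast and pericyte markers showed the same direction. All 6 endothelial markers were higher in tumors, with a median difference of 5.35 and a summed level of 7.57 in tumors against 2.18 in cell lines, from Pecam1 at 5.71 down to Tek at 2.87 in tumors. In cell lines 5 of these 6 were below 0, with Kdr at the lowest value and Esam at −0.93. The same limit applies to the sizes of their differences and to their summed level in cell lines. All 7 markers of fibroblasts and pericytes were higher in tumors, from Col1a1 at 10.88 down to the proteoglycan gene Lum at 7.11. Their median difference was 4.56, and their summed level was 12.3 in tumors and 11.1 in cell lines. In culture 4 of the 7 were well above the floor, with Col1a2 at 10.31, Col1a1 at 9.70, Pdgfrb at 6.65 and Pdgfra at 3.83. These 4 therefore do not mark host cells alone. Postn was at 0.12, Dcn at −0.55 and Lum at the lowest value. Col1a2 differed by 0.20 between tumors and cell lines. Ifitm3 at 6.28 and Bst2 at 5.53 were above the floor in cell lines, where Ptprc and Pecam1 were near it and 4 of the 7 fibroblast and pericyte markers were not.

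The label of melanoma was set against markers of the melanocyte lineage. Of 7 markers Mitf and Pmel were measured, and the other 5 were not analysed here. Mitf, the master transcription factor of melanocytes, had a mean log2 CPM of 4.23 in tumors and 2.67 in cell lines, and the pigment granule gene Pmel was near the floor, at 0.05 in tumors and −0.31 in cell lines. Transcripts of keratinocytes and muscle were low, with the highest of each list, Krt10 and Myh4, at 2.39 and 2.84 in tumors and the lowest, Krt5 and Ckm, at −0.01 and 0.96.

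The highest and lowest genes of each list are named by mean log2 CPM without division by length. Among interferon-stimulated antiviral effectors, Ifitm3 and Bst2 were high in level and of middle size in their difference. Per kilobase of exon, none of the 17 effectors exceeded Ifitm3 in either table. In tumors 1 effector, Ifit3, which binds viral RNA together with its relatives, lay above Bst2, at 7.87 log2 CPM per kilobase against 7.70 for Bst2. In cell lines none did. All 17 were higher in tumors, with a median difference of 3.30 and a range of 0.20 to 5.72. The difference was larger than that of Ifitm3 for 9 of them and larger than that of Bst2 for 10. Among these 9 were Mx1, Oas3 and Mx2, whose cell line values were near the floor. The top of the range, 5.72, was that of Mx1, and its size rests on how counts near 0 were handled.

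In the cell lines 3 of the 17 effectors, Mx1, Oas3 and Mx2, were below 0 log2 CPM, while Ifitm3 and Bst2 were at 6.28 and 5.53. The GTPase gene Mx1 had a mean log2 CPM of 4.89 in tumors and −0.83 in cell lines. The oligoadenylate synthetase gene Oas3 had 5.04 in tumors and −0.18 in cell lines. Ly6e, a surface protein that restrains coronavirus entry, was the most abundant effector in tumors before division by length and differed by 2.04, close to the 2.02 of Bst2, with 9.14 in tumors and 7.10 in cell lines. Mx2 was the lowest effector in tumors, at 3.94, against −0.18 in cell lines. The RNA-binding proteins Zc3hav1 and Adar differed by 0.20 and 0.31.

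Genes of interferon signaling were also mostly higher in tumors, by less. Of 15 measured genes 14 were higher, with a median difference of 1.46. The kinase Jak1 had the highest mean in tumors and was the exception, at 7.37 in tumors and 7.62 in cell lines. The feedback inhibitor Socs3 had 7.33 in tumors and 4.93 in cell lines. The receptor chain Ifnar2, the lowest of the list in tumors, differed by 0.37. Per kilobase of exon, 0 of the 15 genes exceeded Bst2 in either table. Differences larger than that of Ifitm3 included those of the transcription factor Irf7, at 5.12, and of Usp18, a brake on the interferon receptor, at 4.20. Usp18 was low in cell lines, at 0.53, which limits how far the size of its difference can be read.

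Enzymes that act on Ifitm proteins and other membrane factors against viruses mostly differed less between the tables. Of 8 measured genes 6 were higher in tumors, with a median difference of 0.61. Nedd4, a ubiquitin ligase that marks IFITM3 for degradation in human cells, had the highest mean before division by length, at 10.43 in tumors and 11.12 in cell lines. Zdhhc20, an enzyme that attaches palmitate to IFITM3 in human cells, had 7.64 in tumors and 6.87 in cell lines. The protease Zmpste24, with which Ifitm proteins interact, had 7.11 in tumors and 7.08 in cell lines. Vapa, a membrane contact protein bound by IFITM3, had 7.52 in tumors and 7.86 in cell lines. Serinc3, which human retroviruses counter, had 9.56 in tumors and 8.01 in cell lines. Per kilobase of exon in tumors, Serinc3 was at 7.62 and Nedd4 at 6.98. Ch25h, which makes an antiviral oxysterol, had the lowest mean and was alone in exceeding the difference of Ifitm3, with 3.68 in tumors and 0.53 in cell lines. That cell line value was low, which limits how far the size of its difference can be read.

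**Figure D3:**
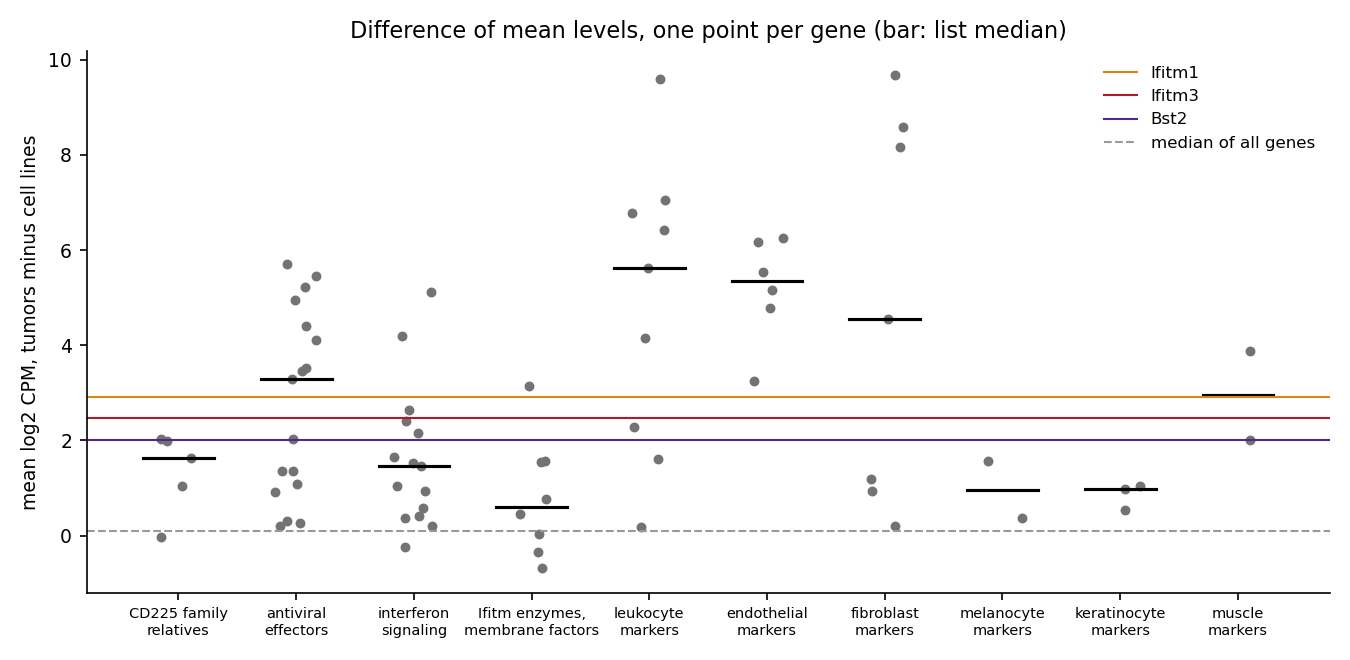
Difference of the mean log2 CPM, tumors minus cell lines, for each measured gene of the gene lists (points) with the list median (bars), the values of Ifitm1, Ifitm3 and Bst2 (solid lines) and the median of all genes (dashed line). The 3 members lie below the medians of leukocyte markers at 5.63, endothelial markers at 5.35 and antiviral effectors at 3.30. In cell lines Ifitm1, 8 of 9 leukocyte markers and 5 of 6 endothelial markers were below 0 log2 CPM. The sizes of their differences therefore rest on how counts near 0 were handled.

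Values of 5 CD225 relatives were analysed, and all were low. Ifitm7 (chromosome 16) had a mean log2 CPM of 2.19 in tumors and 0.17 in cell lines, Ifitm10 had 1.59 in tumors and −0.39 in cell lines, and Ifitm6 had 0.69 in tumors and −0.93 in cell lines. The glucose transporter regulator Tusc5 had −0.01 in tumors and −1.05 in cell lines, and Tmem91 had −0.20 in tumors and −0.18 in cell lines. Higher means in tumors were thus found for 4 of 5, but Ifitm6 and Tusc5 were at cell line values where every listed gene was higher in tumors, as for Ifitm1. Among the family genes analysed, Ifitm3 was the 1 with a level above the median gene.

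Coding sequences of this family are alike, and short stretches of them are shared word for word. In GENCODE M21, the 318 coding bases of Ifitm1 were 89.3% identical to those of Ifitm7 and 80.6% identical to those of Ifitm3 over aligned bases, and 68.2% to those of Ifitm6. Of 629 windows of 50 bases in the Ifitm3 transcript, 63 (10.0%) occurred word for word in a transcript of another gene, among them Ifitm1 and Ifitm2. For Ifitm1 53 of 1056 windows (5.02%) did, of which 39 were shared with the gene Gm7676 and 15 with Ifitm3, and none with Ifitm7. With windows of 75 bases the shares were 0.662% for Ifitm3 and 0.582% for Ifitm1, in each case with Gm7676. Bst2 shared 0 windows of either length. The read length is not given in the sources used here. How the counts treated reads with several matches is not given either, so reads of Ifitm1 and of its relatives cannot be fully told apart in its low value.

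Ifitm1 and Ifitm3 lie 39761 bases apart in 1 cluster on chromosome 7. The other 9 measured genes within 150 kilobases of Ifitm3 had smaller differences than Ifitm3. So had 94.5% of all genes, and this says nothing particular to the cluster. Gm7514, a pseudogene between the members, had a mean log2 CPM of 2.70 in tumors and 3.07 in cell lines. Ifitm6, which lies 4929 bases beyond Ifitm3, had 0.69 in tumors and −0.93 in cell lines. On the other side of Ifitm1, Gm45717 had 1.67 in tumors and 0.53 in cell lines. In GENCODE M21 this gene model overlaps the locus of Ifitm2 by 1101 bases on the same strand. Athl1, an enzyme that removes glucose from collagen, had 4.18 in tumors and 4.62 in cell lines. No GENCODE gene overlaps Ifitm1, Ifitm3 or Bst2 on either strand.

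Farther out, the proteasome subunit Psmd13 differed by −0.14 between tumors and cell lines. The desmosome protein Pkp3, the nearest measured gene beyond Ifitm6, differed by 0.90, at 1.81 in tumors and 0.92 in cell lines. On chromosome 8, the endothelial gene Plvap lies 22503 bases from Bst2 and had 5.28 in tumors and 0.49 in cell lines. Mvb12a, an ESCRT-I subunit 5466 bases on the other side of Bst2, had 5.35 in tumors and 5.38 in cell lines. Gtpbp3 and Tmem221, the next genes, differed by −0.06 and 0.61.

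**Figure D4:**
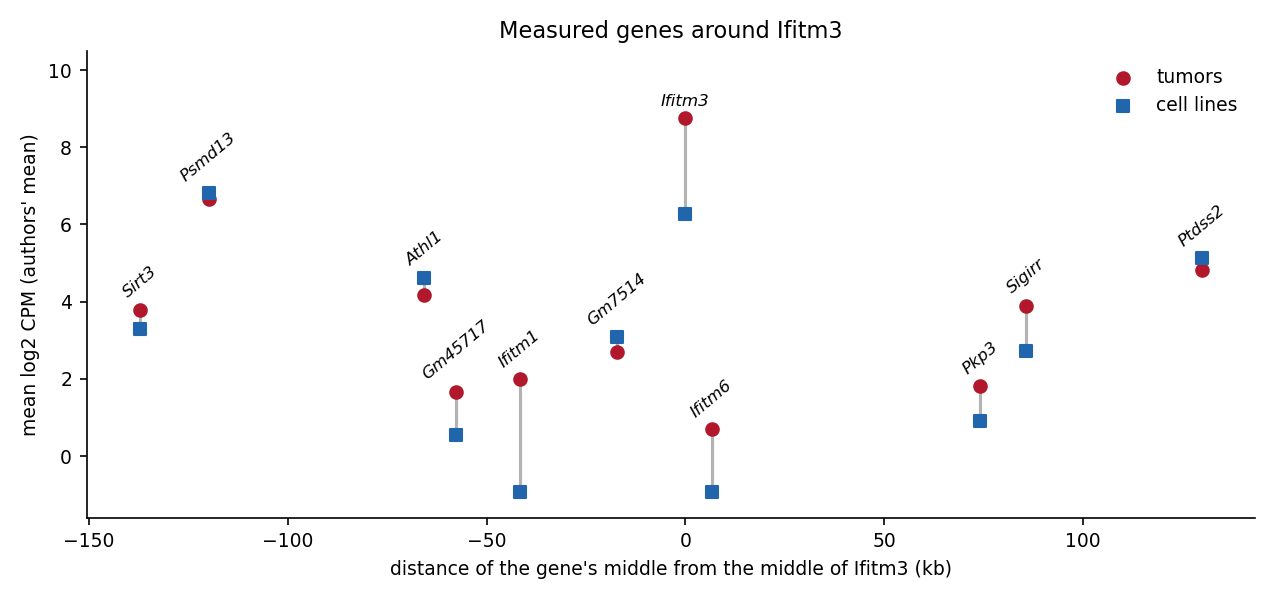
Mean log2 CPM in tumors (circles) and cell lines (squares) of the measured genes around Ifitm3, against the distance of each gene's middle from that of Ifitm3 in kilobases. Ifitm3 is the highest gene of the cluster at 8.76 in tumors and 6.28 in cell lines, while Psmd13, Athl1, Gm7514 and Ptdss2 have lower means in tumors than in cell lines.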

How the data were processed

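Poly(A) RNA of 6 tumors and 6 cell line samples was sequenced from NEBNext Ultra II libraries after RNeasy extraction. Reads were handled by the submitters, per their processing notes, with Bowtie2 2.3.2, TopHat2 2.1.1 and FastQC, and with mm10 as the genome build. No source used here gives the counting program, annotation, filter, normalization or read length. The authors deposited 1 table each for tumors and cell lines, with 1 mean log2 CPM per gene over both genotypes, which was used as deposited. How the mean was formed is not stated, and depth is unknown. The other columns hold the authors' fold changes, p-values and adjusted p-values of knockout against control and were not used, so the planned test of the genotypes was not run.

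Percentiles give the share of genes with a lower value. Levels of different genes were compared per kilobase of exon (GENCODE M21, GRCm38; 17230 of 17285 genes matched by Ensembl identifier). Coding sequences were aligned with Biopython 1.88, with free end gaps. Motifs were searched in RefSeq promoters (GRCm38.p6), and percentiles and motif search were tested on simulated data. Other work used Python 3.11.15, numpy 2.4.6, pandas 2.3.3 and matplotlib 3.10.9. Members, gene lists and the comparison with genes of like level were chosen with earlier results of these data known. Named were the members, their measured neighbours, CD225 relatives, and the 2 highest genes and the lowest gene of each list in tumors (for markers, the highest and the lowest); others were named after their values were seen. Alternatives were other lengths, filters at a log2 CPM of 1 and 5, and centring. Some items of the study are not reported here.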

Additional observations from a re-analysis of the deposited data

How the results depend on the processing

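No paired analysis was possible because the tables used give 1 mean per gene and no values of single samples; for the same reason no replicate was left out and no other normalization, filter on counts or pseudocount was run. With no spread to judge by, a shift under 1.5-fold (0.585 on the log2 scale), under 5 percentile points or a count within 1.5 times was taken as no change. Of 43 alternative values, 23 met this and 20 did not. Part of the 23 could not have come out otherwise, so the tally is no measure of robustness. Centring used medians of 0.10 and −0.08, too small to shift a difference by 0.585 or to reverse one of the members. The filter at 1 removed no antiviral effector, interferon signaling gene, Ifitm enzyme or membrane factor, endothelial marker or fibroblast and pericyte marker. A change of direction could be seen only for differences on the log2 scale, and none of these changed. Percentiles and counts could not show one. Centred on the median of all genes, which was 0.10, the differences between tumors and cell lines were 2.82 for Ifitm1, 2.37 for Ifitm3 and 1.92 for Bst2. The median of genes above 5 in both tables was −0.08, and centring on it changed no direction. As a difference of percentiles they were 23.3 points for Ifitm1, 17.4 for Ifitm3 and 24.0 for Bst2. Among genes above 1, the percentile was 11.0 for Ifitm1 in tumors, and 74.5 for Ifitm3 and 59.9 for Bst2 in cell lines. Among genes above 5 it was 84.9 for Bst2 in tumors, and 49.8 for Ifitm3 and 21.0 for Bst2 in cell lines; Ifitm1 could not be placed there. Per kilobase of exon, chosen after seeing the data, it was 40.4 for Ifitm1 in tumors, and 17.6 for Ifitm1, 96.5 for Ifitm3 and 91.9 for Bst2 in cell lines. Distances from Ifitm1 in cell lines rest on a value near the floor. Per coding length, Bst2 exceeded Ifitm1 by 4.87 in tumors and 5.77 in cell lines, and Ifitm3 exceeded Ifitm1 by 6.40 in tumors and 6.85 in cell lines. With no length, Ifitm3 exceeded Ifitm1 by 6.77 in tumors and 7.22 in cell lines. Among genes above 1 in either table, fewer genes remained, and those higher in tumors numbered 2 CD225 relatives, 1 melanocyte marker, 1 keratinocyte marker and 1 muscle marker.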
